A study of Homo sapiens with 2 samples.

Results

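The MYST histone acetyltransferases are a family of enzymes that transfer acetyl groups to lysines of histone tails, which loosens chromatin and marks it for transcription, replication and repair. Each enzyme carries the same catalytic domain, named after its founding members, and acts inside a complex whose scaffold subunits choose the histone and the place in the genome. The genes were followed here in HEK-293, a line of human embryonic kidney cells, after transfection with a miR-204 mimic. A miRNA pairs through its seed with sites in mRNAs and generally lowers their level, so that the question of the comparison is which transcripts fell or rose with the mimic.

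The members were all probes, other than controls, that the array names MYST1, MYST2, MYST3 or MYST4, which came to 10 of 41000 probes and 4 of 30484 gene names. There was 1 probe for MYST1, 1 for MYST2, 3 for MYST3 and 5 for MYST4. Their current symbols in RefSeq are KAT8, KAT7, KAT6A and KAT6B. The family was picked because a MYST4 probe stood out on these same arrays, so that every ratio given for its genes is a description and not a test. RNA of cells that received 75 nM of miR-204 mimic for 48 h was hybridized together with RNA of cells that received scrambled oligonucleotides, on a 2-colour Agilent whole genome array. On the first array the control RNA carried Cy3 and the miR-204 RNA Cy5, and the dye-swap array had them the other way round. No second transfection is named, so the 2 arrays were counted as 1 replicate and nothing here measures the spread between cultures.

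The mimic itself was not measured by any of these probes. The labels do not say which arm of the miR-204 hairpin the mimic copies, and both mature forms are therefore shown, 5′ to 3′, as RefSeq gives them for GRCh38.p14, on the minus strand of chromosome 9, with the seed (bases 2 to 8) in capitals:
hsa-miR-204-5p: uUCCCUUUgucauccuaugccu
hsa-miR-204-3p: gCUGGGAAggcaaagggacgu
The 5p form, at chr9:70810031-70810052, and the 3p form, at chr9:70809993-70810013, share no seed. Sites for these seeds in the MYST transcripts were not searched, as transcript sequences were not used here.

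Detection of marker genes was checked, which does not by itself identify the line. All 6 HEK-293 marker genes examined (VIM, NEFM, NEFL, KRT8, KRT18 and CDH2) had a counted probe, that is, one whose control RNA, or whose miR-204 RNA, stood well above background on each array. Of 6 marker genes of leukocytes, T cells, hepatocytes, endothelium, astrocytes and muscle, GFAP alone had a counted probe, which was 1 of its 3. By the same rule 25270 of the probes on the array were counted, and 23159 of them were well above background in all 4 channels. Among the MYST probes 9 were counted, 8 of them well above background in all 4 channels, and none was saturated or carried an outlier flag.

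A single MYST probe, of MYST4, was lower with miR-204 by at least 2-fold on average and in the same direction on each array. It was counted through its control signals alone, as its miR-204 signal was not well above background on either array. The count was 0 with normexp background correction and loess, and with loess on uncorrected spots, below called without background correction. Normexp as run here adds an offset of 50 to each signal, and uncorrected spots keep their local background. Both additions draw the ratios of dim probes toward 0. The count was also 0 when all 4 channels had to be well above background. Of all counted probes 0.518% were lower by the 2-fold rule, and the share is printed for reference only, since the family was picked on this contrast. No MYST probe was higher, against 0.123% of all counted probes. At 1.5-fold, 2 MYST probes were lower, both of MYST4, and 0 were higher, against 2.62% and 1.27% of all counted probes. The log2 ratio (miR-204 over control) had a median of -0.24 for the 9 counted MYST probes and 0.001 for all counted probes. The ratios of the 2 arrays had opposite signs for 5 of the 9 MYST probes, and for 52.5% of all counted probes. The difference between the arrays had a median size of 0.56 on the log2 scale over the MYST probes, with a range from 0.13 to 1.30, and of 0.33 over all counted probes. Over arrays that are 1 replicate, tests do not compare the conditions. For the record, 0 of the 9 MYST probes passed the test named in the methods before adjustment, against 6.35% of all counted probes, and 0 after it, against 0.00396%. With limma 2 passed before adjustment, both of MYST4, against 4.66%, and 0 after it, against 0% of all counted probes.

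**Figure D1:**
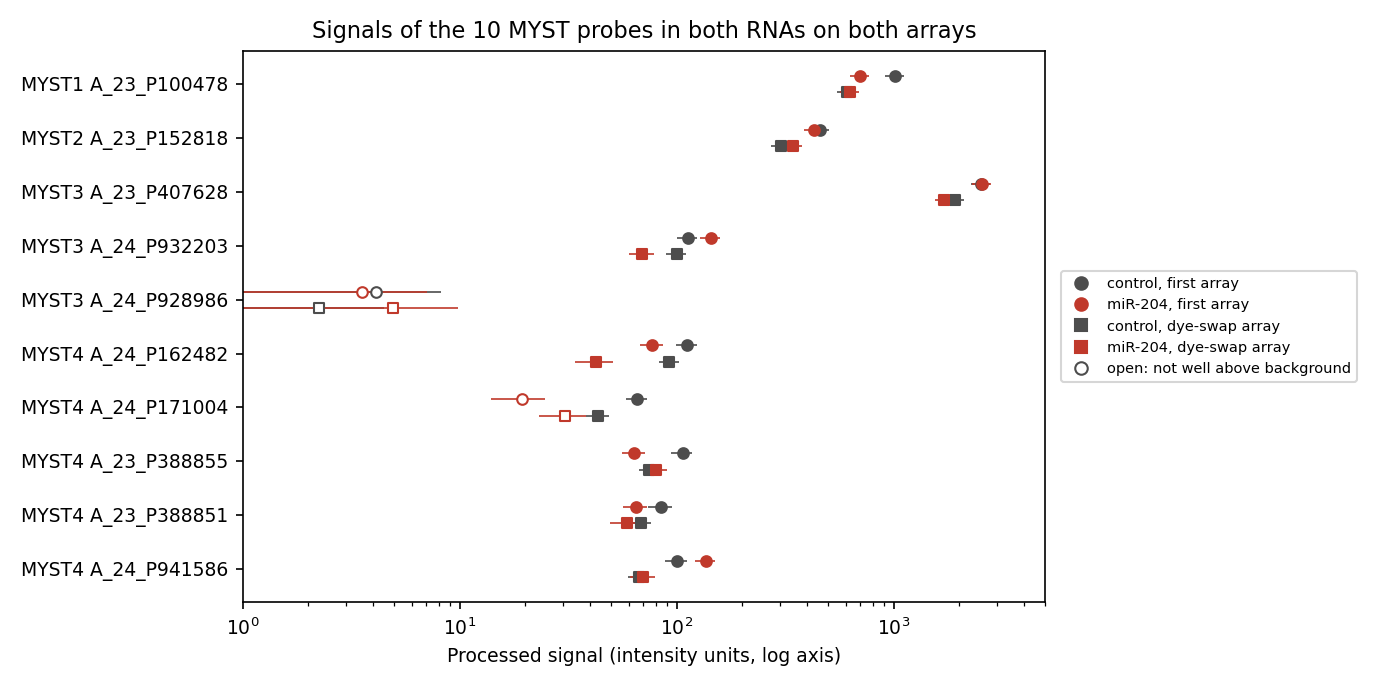
Processed signal of each of the 10 MYST probes (horizontal log axis, intensity units) in the control and miR-204 RNA on each array, with bars giving the error that the scanner software assigns to each signal. The MYST1, MYST2 and first MYST3 probes lie at 304 or above, the other counted probes at or below 144, and the bars of the MYST3 probe A_24_P928986 run beyond the left edge.

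MYST1, also called MOF, acetylates histone H4 and is the catalytic subunit of the MSL and NSL complexes. Its only probe, A_23_P100478, has its ends at 31046907 and 31048843 on chromosome 16 of hg18, the build of the files. The processed signal, an intensity corrected for background and dye, was 1014 for control and 699 for miR-204 on the first array. After the dye swap it was 607 for control and 626 for miR-204. The miR-204 signal was thus the lower one on the first array alone, and the 2 RNAs overlapped across arrays. Its log2 ratio, here and throughout miR-204 over control, was -0.52 ± 0.20 on the first array and 0.04 ± 0.20 after the dye swap, where the error is propagated from the errors the scanner software gives each signal and covers 1 spot on 1 array. The mean was -0.24, and 16.5% of counted probes had a mean at or below it.

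MYST2, also called HBO1, binds the replication licensing machinery and acetylates histones H3 and H4. Its probe, A_23_P152818, lies on chromosome 17 from 45260689 to 45260748. The signal for control was 456 on the first array and 304 after the dye swap, and for miR-204 it was 431 and 344. The order of the 2 RNAs changed between the arrays, and both log2 ratios, -0.07 ± 0.20 and 0.18 ± 0.21, lay within their software error of 0. The mean was 0.06, with 60.6% of counted probes at or below it.

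MYST3, also called MOZ, is a coactivator of RUNX transcription factors and a fusion partner in acute myeloid leukaemia. It had 3 probes on the minus strand of chromosome 8, listed here by the first coordinate in the files. The probe A_23_P407628, from 41907732 to 41907673, had the highest intensities of the family, which does not order transcript levels, since probes differ in how strongly they bind. It read 2532 for control and 2555 for miR-204 on the first array, and 1918 and 1714 after the dye swap. The log2 ratios, 0.05 ± 0.20 and -0.16 ± 0.20, were within their software error of 0. The probe A_24_P932203, with ends at 41913931 and 41911487, had lower intensities. It read 112 for control and 144 for miR-204 on the first array, and 99.9 and 69.4 after the dye swap. The 2 arrays therefore ran in opposite directions, with log2 ratios of 0.36 ± 0.22 and -0.53 ± 0.24. This gap of 0.89 between the arrays exceeded the software errors, yet the mean of -0.09 was close to that of the bright probe, -0.06. The third probe, A_24_P928986, from 41915117 to 41915058, stands for a cDNA clone described as similar to MOZ. Its signals lay between 2.25 and 4.92, none of the channels was well above background, and no ratio is given for it.

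MYST4, also called MORF or querkopf, is the close relative of MYST3 and is mutated in developmental disorders with intellectual disability. Its 5 probes all stand for the same reference mRNA and lie on chromosome 10 within 6725 bases, from 76454764 to 76461488. All 5 were dim. Their control signals lay between 65.8 and 112 on the first array and between 43.3 and 92.3 after the dye swap. The miR-204 signals lay between 19.3 and 136 and between 30.7 and 80.4. The probes are described in their order along the chromosome.

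The first, A_24_P162482, from 76454764 to 76454823, had a signal of 112 for control and 77.0 for miR-204 on the first array. After the dye swap these were 92.3 for control and 42.3 for miR-204. Both miR-204 signals lay below both control signals. The log2 ratios were -0.52 ± 0.24 and -1.14 ± 0.32, with a mean of -0.83, and 1.03% of counted probes had a mean at or below it. Of the MYST probes well above background in all 4 channels it had the lowest mean. Its uncorrected miR-204 spot was 1.74 times its local background on the first array and 1.21 times after the dye swap. The size of its ratio is therefore uncertain too. After the dye swap the log2 ratio was -0.53 with normexp and loess and -0.36 without background correction.

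The second, A_24_P171004, from 76458360 to 76458419, was the probe past 2-fold. Its control signal was 65.8 on the first array and 43.3 after the dye swap, and its miR-204 signal 19.3 and 30.7. Both miR-204 signals again lay below both control signals, but neither miR-204 signal was well above background, so that the size of the ratio is uncertain. Before any correction the spot on the first array read 96.2 over a local background of 56.5 for control and 80.1 over 64.5 for miR-204. The spot on the dye-swap array read 118 over 65.5 for control and 76.6 over 56 for miR-204. The uncorrected miR-204 spot was thus 1.24 and 1.37 times its local background. The log2 ratios were -1.78 ± 0.44 on the first array and -0.48 ± 0.40 after the dye swap, so that the first array alone was past 2-fold. Of counted probes 0.340% had a mean at or below its -1.13. With normexp and loess the mean was -0.23, and without background correction -0.27, so that no fold is given as a lower bound. As both settings draw dim ratios toward 0, they are no independent check of the size of this ratio.

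The next probes along the chromosome, A_23_P388855 from 76460512 to 76460571 and A_23_P388851 from 76460603 to 76460662, are separated by 31 bases. A_23_P388855 read 106 for control and 63.4 for miR-204 on the first array, and 74.8 and 80.4 after the dye swap. A_23_P388851 read 84.5 and 64.7 on the first array, and 68.7 and 58.8 after the dye swap. The miR-204 signal of A_23_P388851 was the lower one on both arrays, and that of A_23_P388855 on the first array alone. Their mean log2 ratios were nearly equal, at -0.32 and -0.31. On single arrays they parted by 0.35 (first array, -0.72 ± 0.24 against -0.37 ± 0.26) and by 0.33 (dye-swap array, 0.09 ± 0.24 against -0.24 ± 0.28). There were 468 pairs of counted probes of a gene name whose first coordinates lay at most 100 bases apart. Their median difference was 0.08 on either array and 0.05 in the mean of the arrays. These neighbours thus differed by more than most such pairs on a single array, and by less, 0.01, in the mean. The pairs were not matched for brightness.

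The last, A_24_P941586, from 76461429 to 76461488, had a signal of 99.8 for control and 136 for miR-204 on the first array. After the dye swap these were 66.8 for control and 70.1 for miR-204. It was the only MYST4 probe with a higher miR-204 signal on both arrays, with log2 ratios of 0.45 ± 0.22 and 0.06 ± 0.25 and a mean of 0.26. Of counted probes 12.4% had a mean at or above it.

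**Figure D2:**
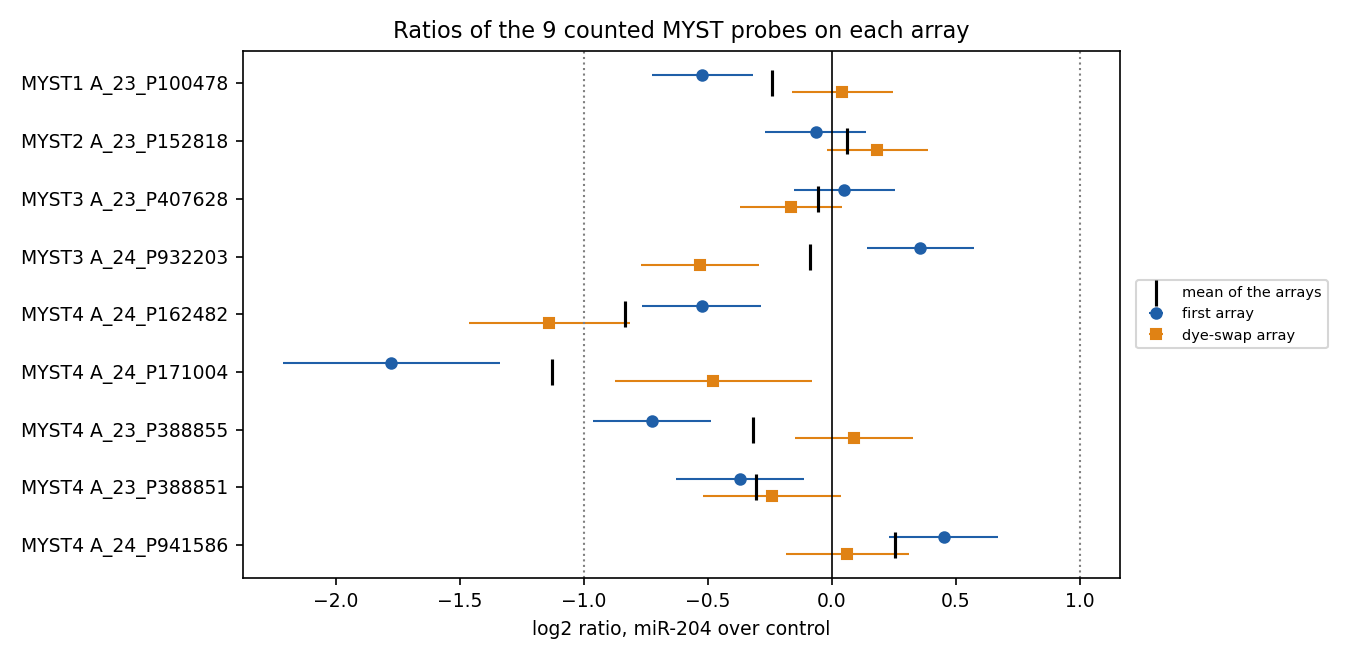
Log2 ratio of miR-204 over control (horizontal axis) for the 9 counted MYST probes on the first and dye-swap arrays, with bars for the error propagated from the scanner software and a tick for the mean; dotted lines mark 2-fold. Means run from -1.13 to 0.26, and 5 probes have ratios of opposite sign on the arrays.

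Over its 5 probes MYST4 had a mean log2 ratio of -0.47 (SD over probes 0.53, n = 5 probes of 1 replicate) and a median of -0.32. The mean was -0.17 with normexp and loess, -0.15 without background correction, -0.30 without A_24_P171004, and 0.26 on the brightest probe alone. Brightest means the highest mean signal over all 4 channels, miR-204 included, so that the choice is tied to the ratio. The probe with the highest control signal on both arrays, A_24_P162482, was at -0.83. On single arrays the mean over the 5 probes was -0.59 (first) and -0.34 (dye swap). Of these probes 3 were lower with miR-204 on both arrays, 1 was higher on both and 1 changed sign. These counts moved with the setting. After the dye swap A_24_P171004 was at 0.02 with normexp and loess, and A_23_P388851 at 0.01 without background correction. With quantile normalization of the ratios A_23_P388855 was at -0.01 there. The lowest means belonged to the first 2 probes along the chromosome and the highest to the last, 6665 bases from the first. This order held without background correction. With normexp and loess A_23_P388851, at -0.24, lay just below A_24_P171004, at -0.23. The means of the other genes were -0.24 for MYST1, 0.06 for MYST2 and -0.07 for MYST3 over its 2 counted probes. As no spread between cultures was measured, whether MYST4 differs from these was not tested.

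**Figure D3:**
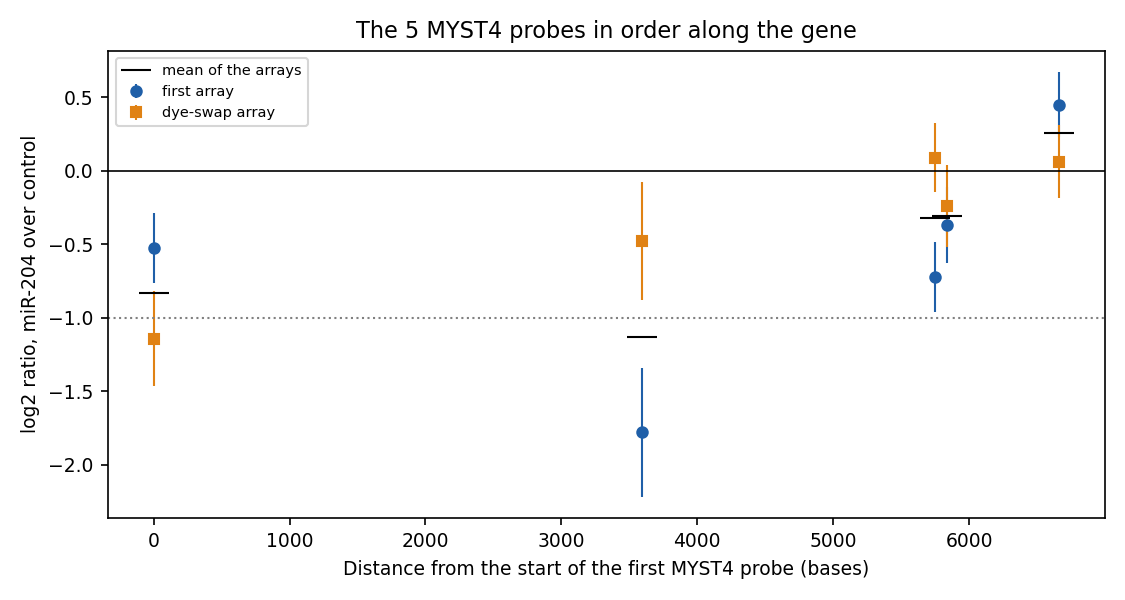
Log2 ratio of miR-204 over control (vertical axis) of the 5 MYST4 probes against the distance in bases from the start of the first probe, for each array with the software error, and with a bar for the mean. The probes at 0 and 3596 bases have means of -0.83 and -1.13, those at 5748 and 5839 bases -0.32 and -0.31, and the last, at 6665 bases, 0.26.

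The spread among the MYST4 probes is given as a description, since the family was picked for one of these ratios. The range of their mean log2 ratios, 1.38, was the widest among the 41 gene names with 5 counted probes, where the median range was 0.46 and the next widest, of PTMA, was 1.31. MYST4 was also the dimmest of these 41, none of which is therefore a match for it in signal, with a mean log2 signal of 6.06 against a median of 8.77. With normexp background correction and loess, the MYST4 range was 0.54 and 6th from the widest, and without background correction it was 0.48 and 10th. Both settings draw the ratios of dim probes toward 0, so that for the dimmest name these ranks are no independent check. The spread of ratios moved with brightness over the whole array. When counted probes were split by mean signal into 5 equal classes, A_24_P171004 and A_23_P388851 lay in the dimmest class, where 2.14% of probes were lower past 2-fold. The other 3 MYST4 probes lay in the next class, with 0.277%. From there to the brightest class the shares were 0.0791%, 0.0396% and 0.0594%. The median difference between arrays was 0.47 in the dimmest class and 0.23 in the brightest. The part of brightness in the MYST4 ratios was not tested.

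The call of the MYST4 probe was lost in the settings that start from uncorrected spot signals. These differ from the reported setting in background handling and in normalization by loess at once, so that the parts cannot be told apart. With normexp and loess the log2 ratios of A_24_P171004 were -0.48 on the first array and 0.02 after the dye swap. The other low probe, A_24_P162482, was -0.38 and -0.34 in these settings and kept its direction on both arrays in each. The last probe remained higher in the mean, at 0.16 and 0.14, but not on both arrays in every setting. Its dye-swap ratio was -0.04 with normexp and loess and 0.01 without background correction. With quantile normalization of the ratios it was -0.05. With processed signals left as they were, with quantile normalization of the ratios and with the authors' series table, the mean of A_24_P171004 lay between -1.13 and -1.10.

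**Figure D4:**
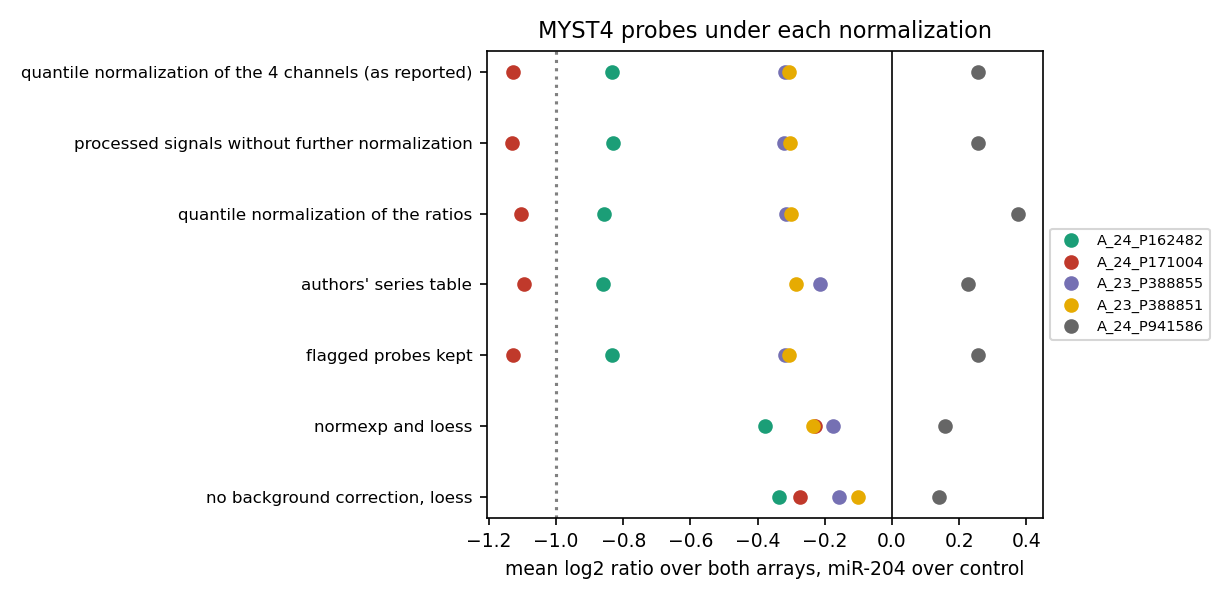
Mean log2 ratio of miR-204 over control over both arrays (horizontal axis) for each of the 5 MYST4 probes under 7 ways of normalizing (vertical axis), with a dotted line at 2-fold. In the settings that start from uncorrected spot signals, the lowest probes lie at -0.38 and -0.34 and none passes 2-fold.

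The gene names whose pair of array ratios was nearest to that of MYST4 were SCLT1, GTF2A1 and EHBP1, at distances of 0.03, 0.06 and 0.07 on the log2 scale. They were taken from 5063 other gene names with at least 2 counted probes, by the Euclidean distance over the 2 arrays. SCLT1 had mean ratios of -0.59 and -0.37, GTF2A1 -0.54 and -0.36, and EHBP1 -0.52 and -0.34. A likeness over 2 arrays rests on only 2 values a gene.

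The remaining human enzyme of the family, KAT5, also called TIP60 and listed on the array as HTATIP, acetylates histones H4 and H2A and the kinase ATM in the response to DNA breaks. Its probe, A_23_P138849, was well above background in all 4 channels. For control it read 1450 on the first array and 888 after the dye swap, and for miR-204 941 and 962. As with MYST1, the miR-204 signal was the lower one on the first array alone, with log2 ratios of -0.61 and 0.12 and a mean of -0.25.

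Genes that work with the MYST enzymes were read from lists of complex subunits. Of the MSL and NSL complexes that MYST1 serves, 10 of 12 genes had a probe and a counted one. None of their 17 counted probes passed 2-fold, or 1.5-fold, in either direction, and the median over probes was 0.003. PHF20, a reader of methylated lysines in the NSL complex, had the lowest mean, -0.31 over 4 counted probes, and MSL3, the chromodomain subunit of the MSL complex, the highest, 0.40 on 1 probe. Of the scaffolds and readers that serve MYST2, MYST3 and MYST4, all 9 genes were counted, with 16 probes. None of these passed 2-fold or 1.5-fold, and their median was 0.07. The JADE scaffold gene JADE2 (PHF15 on the array) had the lowest mean, -0.20, and BRPF3, a scaffold of the same group of complexes, the highest, 0.33. Its probe was higher with miR-204 on both arrays, at 0.29 and 0.37.

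The 16 subunit genes of the KAT5 complex had 25 counted probes with a median of 0.08. Past 2-fold 1 probe was lower, against 0.518% of all counted probes. It was that of MBTD1, a reader of methylated histone H4. For control it read 27.5 on the first array and 26.4 after the dye swap, and for miR-204 6.51 and 16.5. Neither miR-204 signal was well above background, and after Aquantile normalization of the channels, which is open to dye bias, the mean log2 signals were 4.75 for control and 3.38 for miR-204. The miR-204 signal was also raised, where it was lower, to the lowest signal well above background on that array. The level was then 1.37-fold lower in this setting. That is no lower bound, since signals not well above background can exceed this floor, as those of A_24_P171004 did. Values under other background settings are not given for MBTD1. The log2 ratios of the MBTD1 probe were -1.96 and -0.59. Like the MYST4 probe A_24_P171004, it was measured in the control RNA alone and was low mainly on the first array. At 1.5-fold, where 2.62% of all counted probes were lower, a probe of EP400, the remodelling ATPase of the complex, was also lower. It was at -0.61 and -0.56, while the mean over the 3 EP400 probes was -0.26. YEATS4, an acetyl-lysine reader, had the highest mean of this list, 0.34.

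The 12 other histone acetyltransferase genes had 24 counted probes with a median of 0.02, of which none passed 2-fold or 1.5-fold. KAT2B (PCAF on the array) had the lowest mean, -0.27, from 1 probe at -0.55 and another at 0.01, and ELP3, the catalytic subunit of Elongator, the highest, 0.29 over 2 probes. The RUNX factors and CBFB, their shared partner, which MYST3 and MYST4 bind or serve as coactivators, had 6 counted probes, of which none passed 2-fold. Their median was -0.25 against 0.001 over all counted probes, and 3 of the 6 had ratios of opposite sign on the arrays. At 1.5-fold 1 was lower, a RUNX1 probe at -0.92 and -0.36 whose miR-204 signal was not well above background on either array. The other RUNX1 probe was at -0.21 and 0.06. RUNX1 had the lowest mean of the list, -0.36, and CBFB the highest, -0.23. RUNX2 had 1 counted probe of 3, at 0.09 on the first array and -0.56 after the dye swap.

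**Figure D5:**
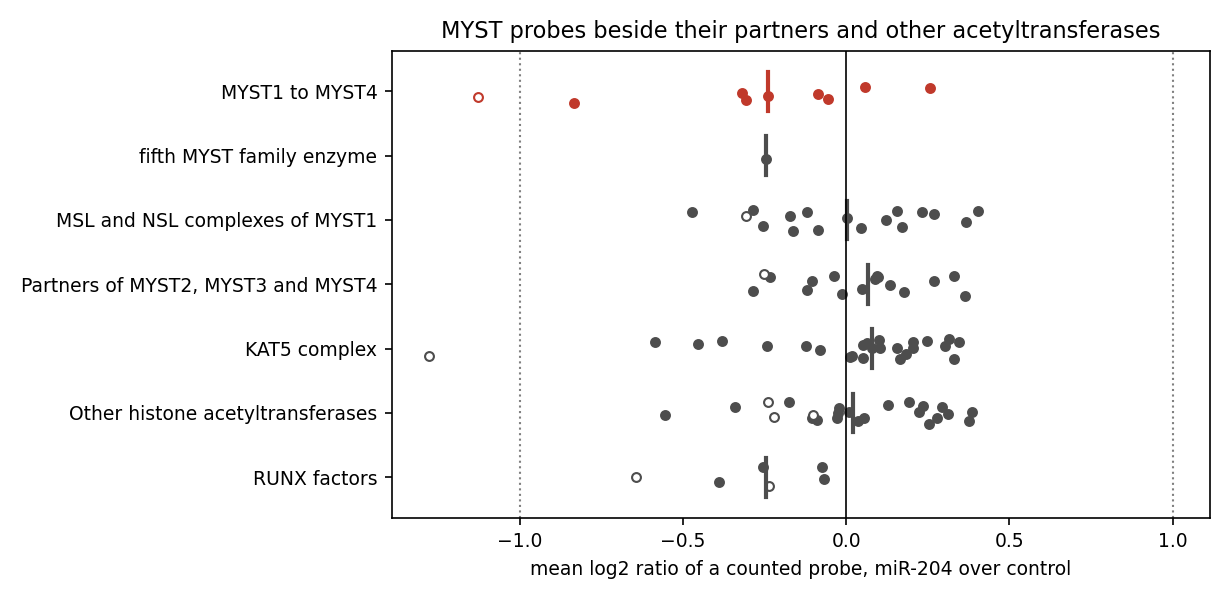
Mean log2 ratio of miR-204 over control (horizontal axis) of each counted probe of MYST1 to MYST4, KAT5 and the lists of partners, with a bar for the median of each row, open circles for probes not well above background in all 4 channels and dotted lines at 2-fold. The 2 probes past 2-fold, of MYST4 and MBTD1, are both open.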

How the data were processed

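The authors extracted both arrays with Agilent Feature Extraction 9.5.3.1, whose deposited processed signals and signal errors are intensity values corrected for background and dye, with probe positions on hg18. The deposited spot and local background signals are uncorrected intensity values. The authors' series table holds log2 ratios, whose direction was checked against the processed signals (Pearson correlation 0.99 across probes on each array) and whose medians were 0.01 and -0.02. The quantile normalization named in the methods was applied here to the 4 channels. Control spots and 128 probes with outlier flags were left out, spots of a probe were averaged in log2, and quantile normalization used limma 3.58.1 under R 4.3.3. The dye-swap array was turned by its labels, and the calling steps were tested on simulated data.

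As 1 replicate was measured, no test of the conditions was made. Both arrays lay on 1 slide. Precision is limited by the number of arrays. A probe was called at a mean log2 ratio of 1 in size and equal sign on both. The members and lists were chosen with earlier results of these data known. Named are all MYST probes, KAT5, in each list the genes past 2-fold or with the lowest and highest mean, and the 3 gene names nearest to MYST4. EP400, the RUNX genes and PTMA, and the comparisons by brightness, neighbouring probes and range over probes, were chosen after values were seen. The settings varied were background correction, normalization, source of the values, signal filter, flags, arrays, threshold, gene summary and test.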

Additional observations from a re-analysis of the deposited data

How the results depend on the processing

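In the reported setting 1 MYST probe was lower and 0 were higher, and 0 were higher under every alternative run. The lower count became 0 with normexp and loess, without background correction, when all 4 channels had to be well above background, at 2-fold on each array, and with the methods' t-test or limma after Benjamini-Hochberg adjustment, and it became 2 at 1.5-fold. Those tests run over arrays that are 1 replicate and do not compare the conditions. Before adjustment, 0 of 9 MYST probes passed the methods' t-test and 2 passed limma, against 6.35% and 4.66% of counted probes. Without the first array the lower probe was A_24_P162482 (-1.14), and without the dye-swap array A_24_P171004 (-1.78). The MYST4 mean of -0.47 moved to -0.17 with normexp and loess and to -0.15 without background correction. With its brightest probe, by the mean of all 4 channels, it moved to 0.26. The MYST4 probe with the highest control signals was at -0.83. The MYST4 mean was -0.30 when all 4 channels had to be well above background. Leaving out the first array gave -0.34, and leaving out the dye-swap array -0.59. From the dye-swap array alone MYST1 was 0.04, MYST2 0.18 and MYST3 -0.35, and from the first array alone they were -0.52, -0.07 and 0.20. The called probe A_24_P171004 went from -1.13 to -0.23 with normexp and loess and to -0.27 without background correction. These moves are smaller than its spread over the 2 arrays (SD 0.92), so that a value within that spread is no sign of stability. In these same settings 5 other values, all of MYST4, moved by more than their spread. Both settings draw dim ratios toward 0, and both change background handling and normalization together. The settings for the range were chosen after seeing the data. Each log2 ratio pairs the 2 RNAs on 1 array, and limma was run on these ratios. The methods' t-test was run on the 4 channels without that pairing. Pairing by culture was not possible because there is only 1 replicate. Low signal over background limits the MYST4 probes and the dimmer MYST3 probes.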
